A study of Mus musculus with 12 samples.

Results

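The 10 genes described here are Etv1, Etv4, Etv5, Dusp4, Dusp5, Dusp6, Spry1, Spry2, Spry4 and Spred1, which are 3 ETS transcription factors, 3 MAP kinase phosphatases and 4 Sprouty or Spred genes. They were taken by gene name from the 55487 genes of the raw count table, and all 10 passed the filter on low counts that left 16808 genes for testing. They were chosen by a reading of their levels over the 4 groups in these same libraries, so levels and fold changes between groups are given as a description, without p-values, and the counts of calls among them support nothing. A gene is said to be called in a comparison when its Benjamini-Hochberg adjusted p over all genes tested was under 0.05 in edgeR's quasi-likelihood test. Counts of called genes among the 10 are set beside the share of all genes called.

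ERK is the last kinase of the RAS, RAF and MEK cascade, through which growth factor receptors and, in beta cells, glucose and calcium entry reach the nucleus. Cells with active ERK transcribe genes that act back on the cascade. The Dusp genes encode phosphatases that remove the activating phosphates from MAP kinases, Sprouty and Spred proteins act between the receptor and RAF, and Etv1, Etv4 and Etv5 form the PEA3 group of ETS factors, which carry the signal on to further genes. Capicua (CIC) is a repressor of the PEA3 genes whose action ERK relieves.

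Min6, an insulin-producing line of mouse beta cells, was kept for 48 h in 1 of 4 conditions, with 3 libraries each. FoxOi cells received 1 µM of AS1842856, a small molecule inhibitor of the transcription factor FoxO1. Loperamide cells received 5 µM of the opioid receptor agonist loperamide, FoxOi_Loperamide cells received 1 µM of the inhibitor with 5 µM of loperamide, and DMSO cells received the solvent. The labels do not say whether libraries of a group came from separate cultures, so the tests measure the spread between these libraries, which may be technical.

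Total counts ran from 10640485 to 19499216 per library, and the 3 Loperamide libraries had the lowest, the 2nd lowest and the 3rd lowest totals. All 8 beta cell markers averaged 1 CPM (read counts relative to the scaled library size) or more in every group, a low bar that hides changes in level. Mafa averaged 810 CPM in DMSO, 86.4 CPM in FoxOi, 760 CPM in Loperamide and 171 CPM in FoxOi_Loperamide libraries. G6pc2 averaged 1663, 1703, 1811 and 1618 CPM in the same order. Libraries carry the replicate numbers 1, 2 and 3 in each group, and the same number goes with the same library code in all groups. Chi-square per degree of freedom between libraries of the same group ran from 5.34 to 33.6, so 0 pairs agreed within sampling noise.

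Levels of different genes were compared as FPKM, which corrects for gene length. In FoxOi cells Dusp4 led at 131 ± 23.6 FPKM (SD, n = 3), and in DMSO cells Dusp5 led at 68.4 ± 4.83 FPKM. In DMSO cells the order below Dusp5 was Dusp4 at 44.5 ± 14.1 FPKM, Etv1 at 31.1 ± 6.44 FPKM, Dusp6 at 20.9 ± 4.20 FPKM and Etv5 at 10.3 ± 0.109 FPKM. Etv4, Spry2 and Spry4 lay between 5.05 and 6.64 FPKM in DMSO cells, differences within their SDs or close to them. Spry1 at 1.46 ± 0.240 FPKM and Spred1 at 0.0410 ± 0.0283 FPKM were the lowest, so the data on these 2 genes rest on few reads, 2 to 18 counts per library for Spred1 and 24 to 77 for Spry1.

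Etv4 and Etv5 stood highest with the inhibitor and were far lower wherever loperamide was present. Etv4 (ENSMUSG00000017724, GRCm38 chromosome 11, 101769742 to 101785371, minus strand) had 30.2, 33.2 and 24.0 CPM in FoxOi libraries, 0.931, 1.29 and 1.51 CPM in Loperamide libraries, 1.36, 1.69 and 0.975 CPM in FoxOi_Loperamide libraries, and 18.4, 16.3 and 13.3 CPM in DMSO libraries. The FoxOi libraries lay above every DMSO library, and all 6 libraries with loperamide lay far below the lowest DMSO library, while the 2 loperamide groups overlapped each other. On the log2 scale Etv4 differed from DMSO by 0.86 ± 0.16 (SE) in FoxOi cells, by -3.66 ± 0.23 in Loperamide cells and by -3.57 ± 0.21 in FoxOi_Loperamide cells.

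Etv5 (ENSMUSG00000013089, chromosome 16, 22381309 to 22439719, minus strand) had 58.2, 68.3 and 49.7 CPM in FoxOi libraries, 4.28, 4.78 and 4.88 CPM in Loperamide libraries, 3.32, 2.93 and 1.95 CPM in FoxOi_Loperamide libraries, and 41.9, 42.0 and 41.4 CPM in DMSO libraries. None of the 4 groups overlapped another, and FoxOi_Loperamide was the lowest. The log2 differences from DMSO were 0.49 ± 0.13 for FoxOi, -3.16 ± 0.16 for Loperamide and -3.92 ± 0.16 for FoxOi_Loperamide.

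Etv1, the third factor of the PEA3 group, moved least of the 3 in both comparisons of a loperamide group with DMSO. Etv1 (ENSMUSG00000004151, chromosome 12, 38779380 to 38870484, plus strand) had 140, 173 and 163 CPM in FoxOi libraries, 131, 178.5 and 181 CPM in Loperamide libraries, 86.6, 97.1 and 98.3 CPM in FoxOi_Loperamide libraries, and 181, 223 and 271 CPM in DMSO libraries. The ratio of mean CPM to DMSO was 0.705 for FoxOi, 0.728 for Loperamide and 0.418 for FoxOi_Loperamide, or log2 differences of -0.50 ± 0.15, -0.46 ± 0.15 and -1.26 ± 0.15. The Loperamide and DMSO groups overlapped, and the Loperamide call was lost without Loperamide replicate 1 (log2 -0.32), DMSO replicate 2 (-0.48) or DMSO replicate 3 (-0.32). It was also lost with library totals as the scale (-0.37), in the fit to these 2 groups only (-0.46) and on unfiltered FPKM (-0.44), where the FoxOi call was lost too (-0.48).

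The FoxO motif is the site read by the inhibitor's target. The region around a start of Etv5 is shown because it alone, of the 9 windows searched for 7 of these genes, holds that motif. It runs from 250 bases before the RefSeq start to 50 after it (GRCm38.p6, chr16:22439521-22439820, minus strand), 5′ to 3′, with the single FoxO motif GTAAACA in capitals, at position -183 from the start.
Etv5: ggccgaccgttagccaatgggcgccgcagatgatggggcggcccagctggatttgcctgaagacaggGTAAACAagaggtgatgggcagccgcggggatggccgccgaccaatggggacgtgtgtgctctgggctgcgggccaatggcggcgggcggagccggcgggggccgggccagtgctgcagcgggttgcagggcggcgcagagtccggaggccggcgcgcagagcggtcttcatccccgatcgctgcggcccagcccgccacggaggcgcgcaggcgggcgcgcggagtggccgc

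The 3 phosphatase genes were all lower with loperamide and went different ways with the inhibitor. Dusp6, the phosphatase that is specific for ERK and stays in the cytoplasm (ENSMUSG00000019960, chromosome 10, 99263231 to 99267489, plus strand), had 35.3, 33.2 and 29.1 CPM in FoxOi libraries, 6.14, 6.07 and 6.82 CPM in Loperamide libraries, 6.85, 6.62 and 6.46 CPM in FoxOi_Loperamide libraries, and 53.8, 50.0 and 71.7 CPM in DMSO libraries. The 2 groups with loperamide overlapped at the bottom, FoxOi lay apart in the middle and DMSO on top. The log2 differences from DMSO were -0.85 ± 0.12 for FoxOi, -3.20 ± 0.15 for Loperamide and -3.14 ± 0.14 for FoxOi_Loperamide.

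Dusp4, a nuclear phosphatase (ENSMUSG00000031530, chromosome 8, 34807297 to 34819894, plus strand), had 295, 362 and 429.9 CPM in FoxOi libraries, 45.3, 46.5 and 80.0 CPM in Loperamide libraries, 29.2, 30.2 and 40.3 CPM in FoxOi_Loperamide libraries, and 89.7, 113 and 164 CPM in DMSO libraries. The 4 groups did not overlap, and Dusp4 was the only one of the 3 phosphatase genes higher with the inhibitor than in DMSO, at 2.97 times the DMSO mean. Its log2 difference was 1.57 ± 0.26 for FoxOi over DMSO, -1.09 ± 0.27 for Loperamide over DMSO and -1.88 ± 0.27 for FoxOi_Loperamide over DMSO.

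Dusp5, a nuclear phosphatase specific for ERK (ENSMUSG00000034765, chromosome 19, 53529109 to 53542431, plus strand), had 138, 136 and 101 CPM in FoxOi libraries, 73.4, 74.2 and 73.6 CPM in Loperamide libraries, 40.6, 31.5 and 31.7 CPM in FoxOi_Loperamide libraries, and 178.2, 155 and 176 CPM in DMSO libraries. The order DMSO, FoxOi, Loperamide, FoxOi_Loperamide held without overlap at any step. The log2 differences from DMSO were -0.44 ± 0.12 for FoxOi, -1.20 ± 0.12 for Loperamide and -2.29 ± 0.13 for FoxOi_Loperamide. An antisense gene, Gm50394, overlaps Dusp5 and had 99 counts over all libraries against 19089 for Dusp5.

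The start of Dusp5 is shown because it alone, of the 9 windows searched for 7 of these genes, holds CArG boxes. These are the site of serum response factor, through which ERK and ETS cofactors such as Elk1 act. The window is GRCm38.p6, chr19:53528895-53529194, plus strand, 5′ to 3′, and capitals mark an ETS motif (GGAAGT, read on the other strand, at -193), the adjoining CArG boxes at -82 and -72 and a CRE core (TGACGT, on the other strand, at -56).
Dusp5: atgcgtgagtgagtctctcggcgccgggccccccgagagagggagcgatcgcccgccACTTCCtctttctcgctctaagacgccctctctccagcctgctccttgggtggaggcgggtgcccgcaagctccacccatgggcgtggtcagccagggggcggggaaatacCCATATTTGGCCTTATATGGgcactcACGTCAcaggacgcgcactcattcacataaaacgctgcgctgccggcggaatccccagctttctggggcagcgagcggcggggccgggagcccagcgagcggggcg

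The Sprouty genes, which encode inhibitors of receptor tyrosine kinase signalling, each had a different profile. Spry2 (ENSMUSG00000022114, chromosome 14, 105891947 to 105896819, minus strand) had 42.6, 62.0 and 52.9 CPM in FoxOi libraries, 8.01, 7.36 and 12.4 CPM in Loperamide libraries, 11.7, 11.4 and 15.4 CPM in FoxOi_Loperamide libraries, and 11.6, 10.2 and 15.2 CPM in DMSO libraries. The FoxOi group stood alone on top, and the other 3 groups overlapped. Spry2 differed from DMSO by 2.10 ± 0.20 on the log2 scale in FoxOi cells, and by -0.40 ± 0.22 in Loperamide and 0.06 ± 0.21 in FoxOi_Loperamide cells, neither of which was called. The Loperamide difference was called as lower without Loperamide replicate 3 (log2 -0.68), in the unfiltered fit (-0.41) and under the replicate block (-0.41).

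Spry4 (ENSMUSG00000024427, chromosome 18, 38586247 to 38601415, minus strand) had 25.5, 28.8 and 27.7 CPM in FoxOi libraries, 6.14, 7.74 and 9.98 CPM in Loperamide libraries, 3.97, 4.68 and 4.14 CPM in FoxOi_Loperamide libraries, and 19.6, 22.6 and 30.1 CPM in DMSO libraries. FoxOi and DMSO overlapped, with a log2 difference of 0.19 ± 0.16 that was not called. Loperamide differed from DMSO by -1.58 ± 0.18 and FoxOi_Loperamide from DMSO by -2.50 ± 0.18, with no overlap.

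Spry1 (ENSMUSG00000037211, chromosome 3, 37639947 to 37644598, plus strand) had 2.49, 2.36 and 2.10 CPM in FoxOi libraries, 2.23, 4.10 and 3.59 CPM in Loperamide libraries, 3.42, 2.25 and 3.90 CPM in FoxOi_Loperamide libraries, and 3.51, 4.79 and 4.47 CPM in DMSO libraries. Only the FoxOi group lay apart from DMSO, with a log2 difference of -0.88 ± 0.24. Spred1, which binds the RAS regulator neurofibromin (ENSMUSG00000027351, chromosome 2, 117121374 to 117182279, plus strand), had 42 counts over the FoxOi libraries, 24 over Loperamide, 39 over FoxOi_Loperamide and 13 over DMSO. Its calls as higher in FoxOi (log2 1.39 ± 0.47) and FoxOi_Loperamide (1.41 ± 0.47) over DMSO were lost with DESeq2 and on FPKM with a pseudocount of 1. The FoxOi call was also lost without FoxOi replicate 2 (1.28) or 3 (1.34) and without DMSO replicate 1 (1.13) or 3 (1.09). The FoxOi_Loperamide call was lost without FoxOi_Loperamide replicate 2 (1.06) and without DMSO replicate 1 (1.17) or 3 (1.12), and without DMSO replicate 2 Spred1 was called as higher in Loperamide (1.84).

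The start of Spry2, the gene with the largest rise under the inhibitor, is shown because it holds 1 copy of the CIC motif TCAATGAA, in capitals and read on the other strand, at -54 from the start (GRCm38.p6, chr14:105896770-105897069, minus strand, 5′ to 3′).
Spry2: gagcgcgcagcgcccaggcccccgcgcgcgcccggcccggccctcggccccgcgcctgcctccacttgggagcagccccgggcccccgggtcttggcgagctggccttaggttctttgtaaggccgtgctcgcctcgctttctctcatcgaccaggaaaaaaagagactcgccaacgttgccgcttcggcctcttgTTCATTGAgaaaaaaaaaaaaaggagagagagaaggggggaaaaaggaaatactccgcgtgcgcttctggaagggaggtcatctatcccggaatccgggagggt

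**Figure D1:**
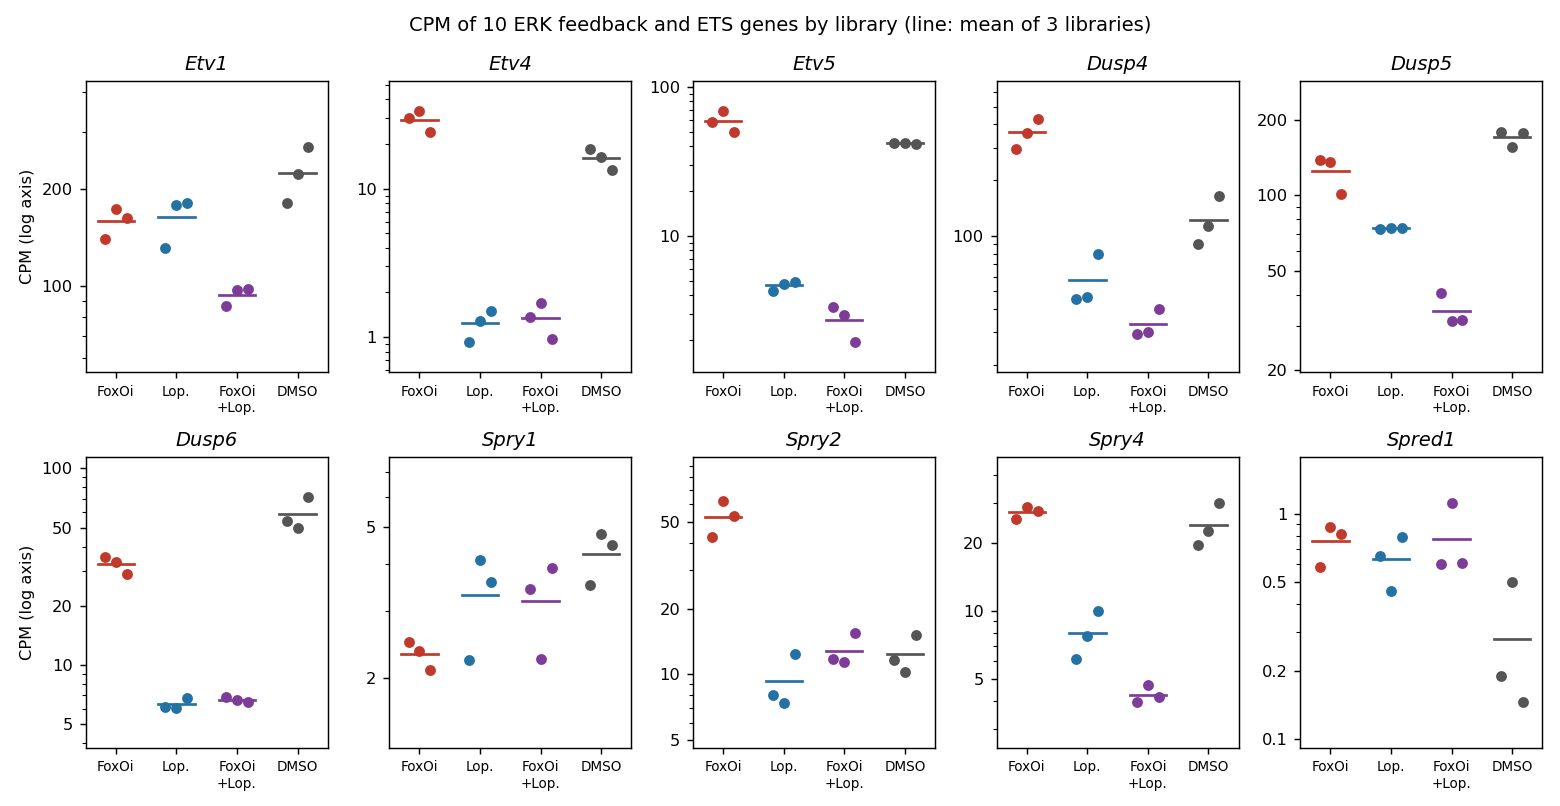
CPM on a log axis for each of the 10 genes, 1 point per library in the order of replicate number, with the group mean as a line; Lop. stands for Loperamide. Etv4, Etv5 and Dusp6 drop to 6.85 CPM or less in all 6 libraries with loperamide, and Dusp4 and Spry2 stand highest in the 3 FoxOi libraries.

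With the inhibitor alone the 10 genes split. Compared with DMSO, 5 were called higher (Spry2, Dusp4, Spred1, Etv4 and Etv5) and 4 lower (Spry1, Dusp6, Etv1 and Dusp5), all 9 without overlap between the groups, while 40.9% of all genes tested were called, 20.7% higher and 20.3% lower, and 24.4% lay wholly above and 24.0% wholly below DMSO. The median log2 difference of the 10 genes was 0.34, against 0.01 over all genes tested. Within replicate numbers the FoxOi to DMSO ratio of Spry2 was 3.67, 6.08 and 3.49, and that of Dusp4 was 3.29, 3.21 and 2.62. Markers of other cell types moved in the same comparison: the summed level of 6 leukocyte markers was 21.6 to 22.9 CPM in FoxOi libraries and 4.54 to 6.07 CPM in DMSO libraries, mostly from Cd68 at 17.8 ± 0.169 CPM in FoxOi and 2.07 ± 0.595 CPM in DMSO. Csf1r had 62 counts over the FoxOi and 26 over the DMSO libraries, Cd14 had 16 over FoxOi and 2 over DMSO, and the defining markers Ptprc and Adgre1 had 2 and 1 over the FoxOi libraries and 1 and 0 over the DMSO libraries. Of 5 ductal markers, summed at 314 to 366 CPM in FoxOi and 254 to 344 CPM in DMSO libraries, 2 made up nearly all of the sum and went opposite ways. Spp1 averaged 202 ± 28.3 CPM in FoxOi and 6.54 ± 1.09 CPM in DMSO, and Krt7 139 ± 20.1 CPM in FoxOi and 294 ± 44.6 CPM in DMSO, while Krt19, Sox9 and Cftr had 9, 7 and 2 counts over the FoxOi libraries. Acinar, endothelial and fibroblast markers summed to 2.15 CPM or less per list in each FoxOi library and 5.94 CPM or less in each DMSO library. The beta cell markers summed to 34588 to 39389 CPM in FoxOi, 62631 to 63048 CPM in Loperamide, 26750.3 to 31542 CPM in FoxOi_Loperamide and 60969.9 to 84582 CPM in DMSO libraries. The part of these markers in the results was not tested, and fewer cells of a type cannot be told apart from less RNA per cell.

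With loperamide alone every call among the 10 genes was lower. Compared with DMSO, 7 were called lower (Etv4, Dusp6, Etv5, Spry4, Dusp5, Dusp4 and Etv1) and 0 higher, and 6 of these 7 did not overlap DMSO in any library. Of all genes tested 31.9% were called, 15.8% lower and 16.1% higher, and 20.8% lay wholly below and 22.3% wholly above DMSO. The median log2 difference was -1.15 for the 10 genes and 0.02 for all genes tested. Within replicate numbers the Loperamide to DMSO ratio of Etv5 was 0.102, 0.114 and 0.118, and that of Spry4 was 0.313, 0.342 and 0.332. Ductal markers summed to 166 to 226 CPM in Loperamide and 254 to 344 CPM in DMSO libraries, and acinar markers to 0.359 to 0.838 CPM in Loperamide and 2.20 to 5.94 CPM in DMSO. Leukocyte markers summed to 4.25 to 4.81 CPM in Loperamide and 4.54 to 6.07 CPM in DMSO, fibroblast markers to 2.96 to 4.31 CPM in Loperamide and 2.49 to 3.38 CPM in DMSO, and endothelial markers to 0.718 to 1.12 CPM in Loperamide and 0.366 to 1.68 CPM in DMSO.

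With both compounds, 7 of the 10 genes were called lower than in DMSO (Etv5, Etv4, Dusp6, Spry4, Dusp5, Dusp4 and Etv1) and 1 higher, Spred1. Of all genes tested, 45.5% were called in this comparison, 23.2% lower and 22.3% higher, and all 8 genes were free of overlap, as were 26.4% of all genes below DMSO and 25.7% above it. The median log2 difference of the 10 genes was -2.09, against 0.01 over all genes. Beside the DMSO sums given above, ductal markers summed to 117.6 to 170.0 CPM in FoxOi_Loperamide libraries, acinar markers to 0.183 to 0.375 CPM, leukocyte markers to 7.24 to 7.62 CPM, fibroblast markers to 1.12 to 1.40 CPM and endothelial markers to 0.305 to 0.544 CPM. The part of other cell types in the loperamide results was not tested either. These comparisons with DMSO share the same 3 DMSO libraries.

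Set against the inhibitor alone, the combination gave 8 genes called lower and 0 higher, with 26.6% of all genes tested called (15.1% lower, 11.5% higher) and 21.7% wholly below the FoxOi libraries, as all 8 were. Etv4 was 21.6-fold lower in FoxOi_Loperamide than in FoxOi cells (log2 -4.44 ± 0.21), Etv5 21.3-fold (-4.41 ± 0.16), Dusp4 10.9-fold (-3.45 ± 0.29) and Spry4 6.42-fold (-2.68 ± 0.18). The log2 differences were -2.29 ± 0.14 for Dusp6, -2.03 ± 0.20 for Spry2, -1.85 ± 0.13 for Dusp5 and -0.76 ± 0.15 for Etv1. Spry1 at 0.47 ± 0.24 and Spred1 at 0.01 ± 0.38 overlapped between the groups and were not called.

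Set against loperamide alone, adding the inhibitor gave 5 genes called lower (Dusp5, Spry4, Etv1, Dusp4 and Etv5) and 0 higher, with 38.9% of all genes called (20.5% lower, 18.4% higher) and 26.1% wholly below the Loperamide libraries, as all 5 were. Their log2 differences were -1.09 ± 0.13, -0.91 ± 0.20, -0.80 ± 0.15, -0.79 ± 0.27 and -0.76 ± 0.19. Etv4, higher with the inhibitor in the absence of loperamide, was at 0.08 ± 0.30 in its presence, and Dusp6 at 0.06 ± 0.16. The Dusp4 call was lost without Loperamide replicate 3 (-0.47), without FoxOi_Loperamide replicate 1 (-0.70) or 2 (-0.72), with library totals as the scale (-0.72) and on unfiltered FPKM (-0.70). On unfiltered FPKM the Etv5 call was lost too (-0.36). Spry2, at 0.46 ± 0.22 and not called, was called higher without Loperamide replicate 3 (0.74) and in the unfiltered fit (0.48).

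The interaction is the log2 effect of loperamide in the presence of the inhibitor minus its effect in its absence. It was called for 6 of the 10 genes, while 9.48% of all genes tested were called, 5.82% negative and 3.66% positive. It was negative for Dusp4 (-2.36 ± 0.38), Spry2 (-1.63 ± 0.30), Etv5 (-1.25 ± 0.23), Spry4 (-1.10 ± 0.25) and Dusp5 (-0.65 ± 0.17), and positive for Dusp6 (0.91 ± 0.20). For Dusp4 the effect of loperamide was -3.45 ± 0.29 with the inhibitor and -1.09 ± 0.27 without it, and for Dusp6 it was -2.29 ± 0.14 with the inhibitor and -3.20 ± 0.15 without it. The Dusp5 call was the least steady, being lost without FoxOi replicate 1 (-0.53) or 2 (-0.58), any 1 of the Loperamide replicates (-0.65, -0.64 and -0.65), FoxOi_Loperamide replicate 2 (-0.58) or 3 (-0.59), or DMSO replicate 1 (-0.63) or 2 (-0.55), and on FPKM with a pseudocount of 1 (-0.59) or 0.1 (-0.63). Spry4 was not called on FPKM with a pseudocount of 1 (-0.64). With the replicate block 9 of the 10 genes were called, adding Etv1 (-0.30), Etv4 (-0.80) and Spry1 (0.82), and on FPKM with a pseudocount of 1 Etv4 was called too (-0.73).

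**Figure D2:**
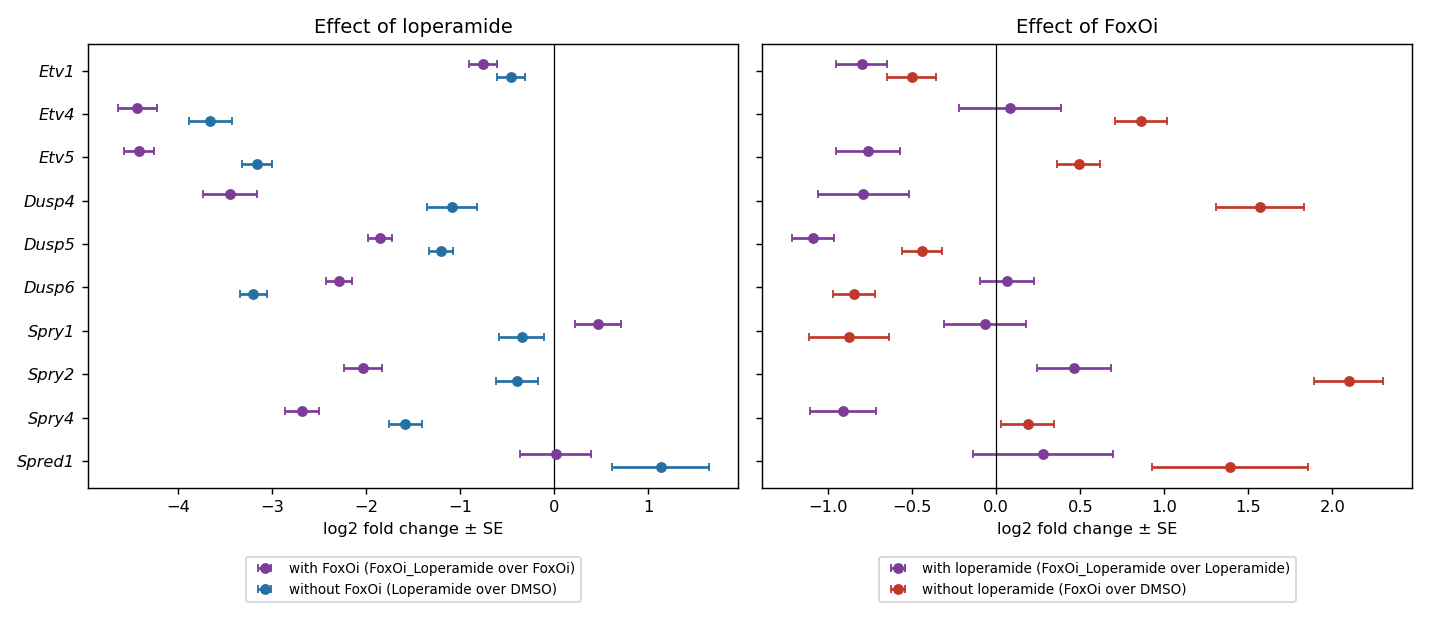
Log2 fold change with its SE for each gene; on the left the effect of loperamide with and without the inhibitor, on the right the effect of the inhibitor with and without loperamide. The inhibitor's effects on Dusp4 and Etv5 are above 0 without loperamide (1.57 and 0.49) and below 0 with it (-0.79 and -0.76).

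The replicate numbers offered a comparison that the choice of genes had not used. Libraries with the numbers 1, 2 and 3 were compared over all groups in a fit with group and number, in which 36.3% of all genes tested were called and 5 of the 10 genes were. Dusp4 differed most, with number 3 above number 1 by 0.68 on the log2 scale and in 4 of 4 groups (adjusted p = 5.69e-08). Etv1 was higher with number 3 than with number 1 by 0.36 in 4 of 4 groups (adjusted p = 6.04e-05), Spry4 by 0.37 in 4 of 4 (0.0158) and Spry2 by 0.41 in 4 of 4 (0.0337). Etv4 differed the other way, by -0.34, with number 3 above number 1 in 1 of 4 groups (adjusted p = 0.0179). Etv5 (adjusted p = 0.0975), Dusp5 (0.113), Dusp6 (0.442), Spry1 (0.620) and Spred1 (0.374) were not called. The labels do not say what the numbers or their codes stand for. Etv1 and Dusp4 were called in every fit that left out 1 library, and the other calls were less steady. The Spry2 call was lost in 7 of the 12 such fits, with adjusted p = 0.164 without FoxOi replicate 1, 0.0878 without Loperamide replicate 1, 0.102 without Loperamide replicate 3, 0.0588 without FoxOi_Loperamide replicate 1, 0.127 without FoxOi_Loperamide replicate 3, 0.0857 without DMSO replicate 1 and 0.268 without DMSO replicate 3. The Spry4 call was lost without Loperamide replicate 3 (0.0583), DMSO replicate 1 (0.152) or DMSO replicate 3 (0.129), and the Etv4 call without FoxOi replicate 2 (0.0608) or 3 (0.210). Calls were gained by Etv5 without DMSO replicate 2 (0.0474) or 3 (0.0137), by Dusp5 without FoxOi replicate 2 (0.0258) or DMSO replicate 3 (0.0221), and by Dusp6 without FoxOi replicate 3 (0.0300). Without Loperamide replicate 3 or DMSO replicate 1 only 3 of the 10 genes were called by number, and on FPKM with a pseudocount of 1 only 2.

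**Figure D3:**
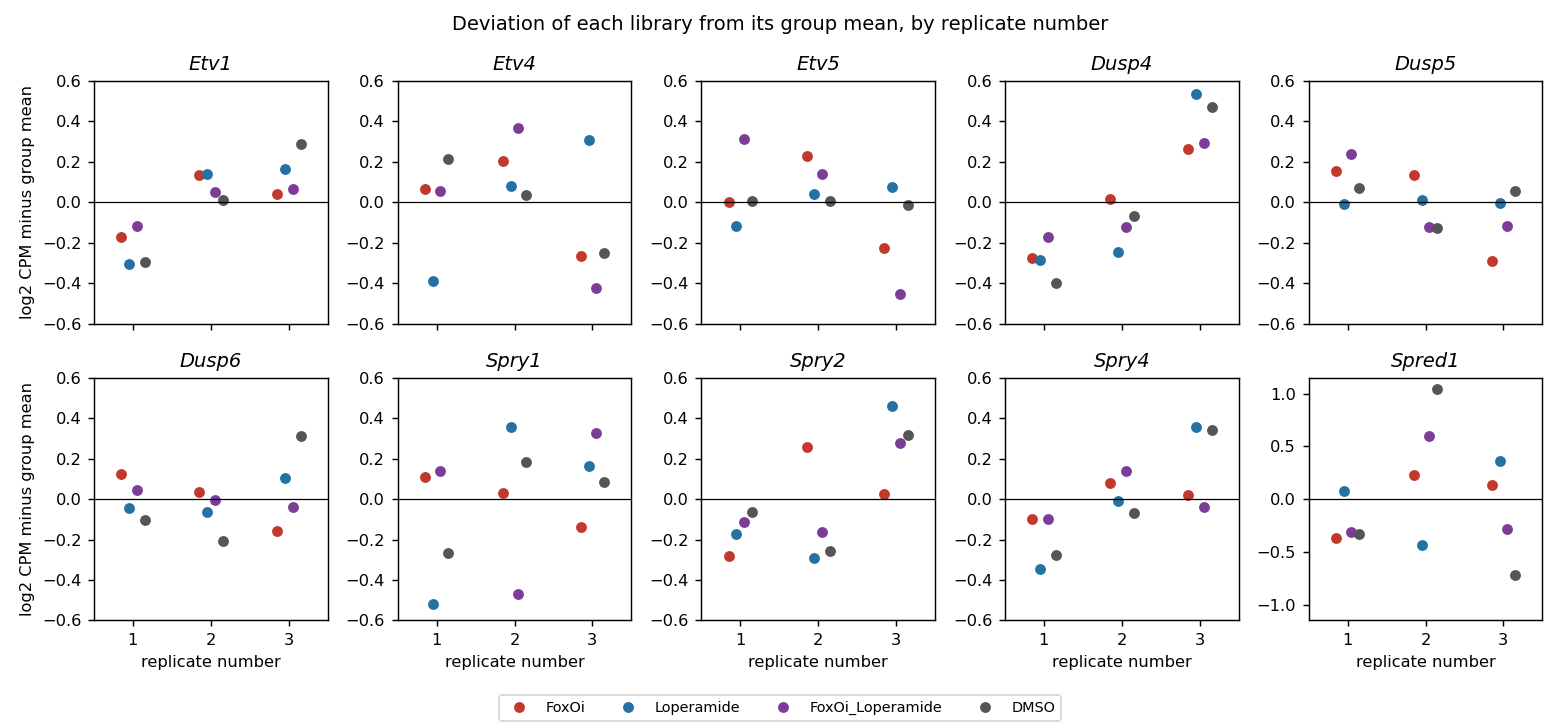
Log2 CPM of each library minus its group mean, by replicate number, with groups in colour. Dusp4 lies above its group mean in all 4 libraries with number 3 and below it in all 4 with number 1; the axis of Spred1 is wider.

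Between libraries of the same group, the genes did not form 1 block. Over the 36 pairs of genes other than Spred1, Pearson's r of log2 CPM after subtraction of group means ran from -0.34 to 0.89 with a median of 0.24 (12 libraries, which share replicate numbers and depth). Etv1 with Spry4 gave 0.89, Dusp4 with Spry2 0.85 and Etv4 with Etv5 0.74, whereas Etv4 with Dusp4 gave -0.25. These values are a description and were not tested.

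The genes whose profiles over the 12 libraries were most like those of these genes were sought by Pearson's r among 12364 genes that averaged 1 CPM or more. For Etv4 they included Cdk18 (r = 0.99) and Kcnk1 (0.98), for Dusp6 Pdia6, Hsp90b1 and Dnajb11 (0.99 each), and for Spry4 Pam, Tmem248 and Uso1 (0.99 each). In Loperamide over DMSO these genes changed less than the gene they resembled: Cdk18 differed by -1.11 on the log2 scale where Etv4 differed by -3.66, and Pdia6 by -1.74 where Dusp6 differed by -3.20. The libraries fall into 4 groups, so differences between group means weigh heavily in these r values. After subtraction of group means, r with Spry4 was 0.90 for Pam, 0.87 for Tmem248 and 0.78 for Uso1. With Dusp6 it was 0.18 for Pdia6, 0.78 for Hsp90b1 and -0.05 for Dnajb11, and with Etv4 0.30 for Cdk18 and 0.34 for Kcnk1.

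Genes of the same pathway outside these 10 were taken from 7 lists with 124 genes in all, of which 90 were tested. The genes named from them were picked as the largest called changes, so their adjusted p-values are a description and support nothing about the lists. Over all lists 53.3% of the tested genes were called in FoxOi, 44.4% in Loperamide and 52.2% in FoxOi_Loperamide, each over DMSO, beside 40.9%, 31.9% and 45.5% of all genes tested. The share was 37.9%, 48.3% and 41.4% for the cascade in FoxOi, Loperamide and FoxOi_Loperamide. It was 33.3%, 33.3% and 58.3% for the other ETS factors, so several of these shares lie near or below that of all genes. Other ERK-induced genes had 85.7%, 64.3% and 57.1% and other MAP kinase phosphatases 83.3%, 66.7% and 83.3%, all above that of all genes. Receptor tyrosine kinases had 53.3%, 46.7% and 66.7%, growth factor ligands 54.5%, 18.2% and 36.4%, and the 3 other Sprouty and Spred genes 66.7%, 0% and 33.3%. Genes of the core cascade changed by less than 1 on the log2 scale in Loperamide over DMSO. Of 29 tested genes from receptor adaptors to ERK and its kinases, 6 rose and 5 fell in FoxOi over DMSO (median log2 difference 0.06), 12 rose and 2 fell in Loperamide (0.17) and 7 rose and 5 fell in FoxOi_Loperamide (0.11). The largest changes over DMSO in FoxOi were those of Rasa2, a RAS GTPase activating protein, at 0.95 ± 0.14 (adjusted p = 6.62e-05), and Rasgrp2, a guanine nucleotide exchange factor, at -1.24 ± 0.25 (0.00110). In Loperamide over DMSO they were those of the scaffold Ksr1 at 0.87 ± 0.15 (0.000530) and Hras at -0.42 ± 0.10 (0.00443). In FoxOi_Loperamide over DMSO they were those of Rasgrp2 at -1.78 ± 0.27 (9.03e-05) and Mapk7 at 0.78 ± 0.09 (4.58e-06). Mapk7 is in the list but encodes ERK5, a relative of ERK outside the RAS, RAF and MEK cascade.

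Other genes that ERK induces moved in both directions. Of 14 tested, 10 rose and 2 fell in FoxOi over DMSO, 5 rose and 4 fell in Loperamide, and 6 rose and 2 fell in FoxOi_Loperamide. Fosl1, an AP-1 subunit, averaged 11.1 ± 2.84 CPM in FoxOi and 0.477 ± 0.208 CPM in DMSO libraries (SD, n = 3, log2 4.49 ± 0.36 SE, adjusted p = 2.48e-07), with 5 and 18 counts over the Loperamide and FoxOi_Loperamide groups. Egr1, an immediate early zinc finger factor, fell with the inhibitor to 97.9 ± 12.53 CPM, against 318 ± 76.5 CPM in DMSO (-1.70 ± 0.16, 2.04e-06), and with loperamide it stood at 448 ± 39.9 CPM. Plaur, the urokinase receptor, fell in Loperamide (-2.93 ± 0.42, 0.000109) and in FoxOi_Loperamide (-2.13 ± 0.34, 0.000150), on 5 and 12 counts against 48 in DMSO. Junb, another AP-1 subunit, rose in Loperamide by 1.23 ± 0.20 (0.000565), and Ier3 rose in FoxOi_Loperamide by 1.48 ± 0.15 (1.22e-06).

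Relatives of the 10 genes moved in both directions. Of 6 other MAP kinase phosphatases, 4 rose and 1 fell in FoxOi over DMSO, 3 rose and 1 fell in Loperamide and 3 rose and 2 fell in FoxOi_Loperamide. Dusp16, which acts mainly on JNK and p38, averaged 23.7 ± 5.08 CPM in FoxOi, 4.52 ± 0.418 CPM in Loperamide, 27.5 ± 4.59 CPM in FoxOi_Loperamide and 2.32 ± 0.290 CPM in DMSO libraries (log2 3.35 ± 0.19 and adjusted p = 1.12e-08 for FoxOi, 3.57 ± 0.19 and 3.32e-09 for FoxOi_Loperamide). Dusp1 rose in Loperamide over DMSO by 1.06 ± 0.24 (adjusted p = 0.00475). Dusp10 fell in FoxOi (-0.78 ± 0.10, 1.90e-05) and in Loperamide (-0.39 ± 0.10, 0.00787), and Dusp7 in FoxOi_Loperamide (-0.38 ± 0.11, 0.0108), a call lost without FoxOi_Loperamide replicate 3 (adjusted p = 0.0550, log2 -0.30) and with library totals as the scale (0.114, -0.22). Of the other Sprouty and Spred genes, Spred2 rose in FoxOi (0.52 ± 0.09, 0.000253) and Spred3 fell in FoxOi (-0.77 ± 0.16, 0.00124) and FoxOi_Loperamide (-1.43 ± 0.16, 6.18e-06), with 0 of 3 called in Loperamide. Of 12 other ETS factors, 4 rose and 0 fell in FoxOi, 3 rose and 1 fell in Loperamide and 6 rose and 1 fell in FoxOi_Loperamide. Elf4 rose in FoxOi by 2.91 ± 0.30 (2.98e-06), Ets2 in FoxOi_Loperamide by 0.88 ± 0.09 (1.97e-06) and Elk1 in Loperamide by 0.43 ± 0.09 (0.00187). Elk3 fell in Loperamide (-0.57 ± 0.12, 0.00209) and in FoxOi_Loperamide (-1.83 ± 0.12, 3.23e-08).

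Upstream of the cascade, 7 of 15 tested receptor tyrosine kinases fell and 1 rose in FoxOi over DMSO, 2 fell and 5 rose in Loperamide, and 9 fell and 1 rose in FoxOi_Loperamide. Insrr, the insulin receptor related receptor, fell to 13.9 ± 2.77 CPM in FoxOi, against 81.6 ± 13.9 CPM in DMSO (-2.56 ± 0.18, adjusted p = 1.63e-07), and Met, the receptor of hepatocyte growth factor, rose there by 2.86 ± 0.31 (4.61e-06). Fgfr2 fell in Loperamide (-1.41 ± 0.17, adjusted p = 2.77e-05). Ntrk3 rose in Loperamide (0.94 ± 0.23, 0.00676) and FoxOi_Loperamide (0.76 ± 0.23, 0.0137), calls lost on FPKM with a pseudocount of 1 (0.0644 and 0.123). The FoxOi_Loperamide call of Ntrk3 was also lost on FPKM with a pseudocount of 0.1 (log2 0.46, adjusted p = 0.0704) and without DMSO replicate 1 (0.60, 0.0615). Of 11 tested ligands, 5 rose and 1 fell in FoxOi, 0 rose and 2 fell in Loperamide, and 1 rose and 3 fell in FoxOi_Loperamide. Areg, a ligand of the EGF receptor, averaged 136 ± 27.7 CPM in FoxOi, 0.210 ± 0.0213 CPM in Loperamide, 8.06 ± 0.0828 CPM in FoxOi_Loperamide and 0.406 ± 0.170 CPM in DMSO libraries, and rose in FoxOi by 8.39 ± 0.21 (adjusted p = 6.80e-12) and in FoxOi_Loperamide by 4.32 ± 0.25 (6.65e-09). Igf2 fell in all 3 comparisons with DMSO, with log2 differences of -1.24 ± 0.15 in FoxOi (1.56e-05), -0.72 ± 0.15 in Loperamide (0.00199) and -1.34 ± 0.15 in FoxOi_Loperamide (6.16e-06).

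**Figure D4:**
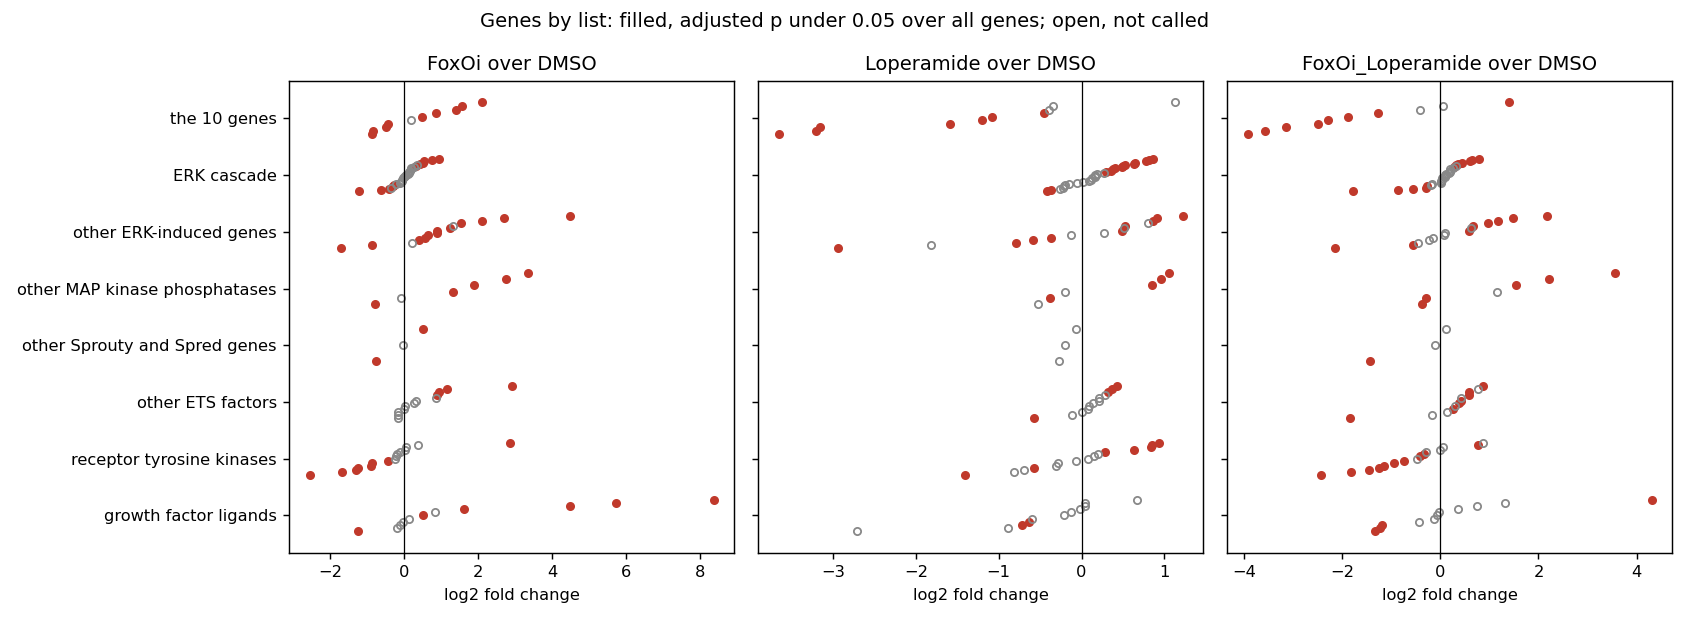
Log2 fold change over DMSO of the 10 genes and of the tested genes in 7 lists of the same pathway, 1 panel per comparison with its own axis. In the middle panel the 10 genes reach -3.66 while the 29 genes of the cascade stay between the -0.42 of Hras and the 0.87 of Ksr1.

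RefSeq windows from 250 bases before to 50 after a start were matched by symbol for 7 of the 10 genes, in 9 windows, and motifs were searched on both strands. For the 10 genes, windows on chromosome 18, where Spry4 lies, were left out, so the start of Spry4 was not searched. The starts of Etv4 and Dusp4 were not searched either, since no window was found for them. The set of all windows was not limited in this way. The FoxO motif GTAAACA was in 1 of the 9 windows (Etv5) and in 3.65% of all 32851 windows of the same length. CArG boxes were in 1 of the 9 (Dusp5) and in 1.63% of all windows, and the ETS motif GGAAGT was in 3 of the 9 (of Etv1, Etv5 and Dusp5) and in 23.8% of all. The CIC motif TCAATGAA was in 1 of the 9 (Spry2) and in 0.749% of all, and TGAATGAA in 0 of the 9 and 1.30% of all. The AP-1 motif TGANTCA was in 0 of the 9 and 7.81% of all, the full CRE TGACGTCA in 0 of the 9 and 1.79% of all, and its core TGACGT, which the full site contains, in 1 of the 9 (Dusp5) and 7.51% of all. None of these motifs, as spelled here, was in the windows of Dusp6, Spry1 and Spred1, or in the Etv1 window that starts at 38783461. The CIC motif was searched only as TCAATGAA and TGAATGAA. Whether the windows of Dusp6 or the other genes hold a CIC site in another form was not tested.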

How the data were processed

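Stranded mRNA libraries read as single reads were processed by the authors, who deposited raw counts per gene and FPKM values. The tools listed by the submitters include STAR 2.7.5a, DESeq2 and Picard 2.19.2, with GRCm38 and mm10 as builds, per the submitters' processing notes. For the counter and its strand setting, nothing is given in the sources used here. From the deposited counts, genes were kept by filterByExpr (minimum count 10, minimum total 15), scaled by TMM and fitted with edgeR 4.0.16 (R 4.3.3) by quasi-likelihood with robust dispersion over all 12 libraries, with the group as the only term. SEs were obtained from F as |log2 fold change| / √F. CPM use TMM-scaled library sizes, and ± after CPM or FPKM is the SD over 3 libraries. The deposited FPKM served for levels between genes and for limma 3.58.1 as an alternative, on log2(FPKM + pseudocount). DESeq2 1.42.0 was another alternative. The steps were tested on simulated data.

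The members and lists were chosen with earlier results of these data known, so the adjusted p-values of list genes are a description too. Outside the 10 genes, each list gave the called gene with the largest rise and the largest fall over DMSO among genes of at least 1 CPM; genes most like a member were ranked by Pearson's r over 12 libraries. Some genes that these rules name are not reported here. Same-numbered libraries deviated together: r of their deviations from group means was at least 0.120 for every number in 4 of the 5 comparisons of groups, and 0.0915 for number 2 in FoxOi_Loperamide against Loperamide, where pairing is not taken as shown.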

Additional observations from a re-analysis of the deposited data

Results flagged for a closer look

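The interaction, a test of whether loperamide acted differently with the inhibitor than without it, was called for 6 of the 10 genes. It was -2.36 for Dusp4, -1.63 for Spry2, -1.25 for Etv5, -1.10 for Spry4, -0.65 for Dusp5 and 0.91 for Dusp6 on the log2 scale. The genes were chosen with these values known, so the calls are a description. Groups of 3 libraries were too small to look for single outlying libraries.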

How the results depend on the processing

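With the replicate number as a block (replicate block), genes called went to 8180 of all genes in Loperamide against DMSO (5370 without it), 7503 in FoxOi_Loperamide against FoxOi (4466) and 4335 for the interaction (1594), and list genes called for the interaction to 47 (21). Without 1 library, the list genes called for the interaction ran from 11 (without DMSO replicate 2) to 21, with 13 without FoxOi_Loperamide replicate 2, and the genes among the 10 called by replicate number from 3 to 6. On FPKM with a pseudocount of 1, 2 of the 10 were called by replicate number (5 on counts), and 3 in FoxOi_Loperamide against Loperamide with no filter (5 on counts). The cause was not tested. Library totals as the scale moved the median log2 difference of all genes over DMSO to 0.115 in FoxOi, 0.118 in Loperamide and 0.165 in FoxOi_Loperamide, and the share of calls that were higher to 63.2%, 66.1% and 66.3%, against 50.5%, 50.5% and 49.1% with TMM. In FoxOi_Loperamide against FoxOi that share was 54.4% (43.1% with TMM). Of the log2 values of the 10 genes under alternatives, 1195 moved by less than 1 SD between replicates, 52 moved by more, and 0 reversed a call. The block also made Spry2 a call in FoxOi_Loperamide against Loperamide (0.47). Spred1 and Spry1 are limited by depth.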
